A study of Mus musculus with 3 samples.

Results

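The cells described here are cells of the mouse cochlea picked by a combination of RNAs that was meant to find inner phalangeal and border cells, which stand around the inner hair cell. A cell barcode was selected when it held at least 1 UMI (unique molecular identifier, which counts 1 captured RNA molecule) of *Sox2* and at least 1 of *Slc1a3*, at least 1 of *Gjb2* or *Gjb6*, UMIs in no more than 2 of 7 genes of Deiters and pillar cells (*Ceacam16*, *Otol1*, *Npy*, *Fgfr3*, *Prox1*, *Rbp7* and *Slitrk6*), and less than 0.5% of its UMIs from *Ocm*, the calcium buffer of outer hair cells. It also had to hold 200 to 6000 genes and no more than 15% mitochondrial UMIs. Of 32657 deposited barcodes 14378 lay within the limits on genes and mitochondrial UMIs, and 570 of these (3.96%) met the whole rule.

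The study dissociated the cochleae of C57BL/6J mice with collagenase and profiled the cells, unsorted, by 10x Genomics 3′ RNA-seq, with 1 library from mice of 14 days (P14) and 2 from mice of 28 days (P28). Each library pooled 14 cochleae of 7 mice, so individual animals cannot be told apart within it, and no label gives a mutation or a treatment for any of the groups. The selected cells numbered 30 at P14, 272 in P28 replicate 1 and 268 in P28 replicate 2, with a median of 7376, 6832.5 and 4108.5 UMIs per cell and 307255, 2139195 and 1452997 UMIs in all. Levels below are UMIs summed over the cells of a library, given per 1000000 UMIs of that sum (CPM), and 3 values in a row always stand for P14, P28 replicate 1 and P28 replicate 2 in that order.

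RNAs of the sex chromosomes also differed between the ages. *Xist*, the RNA that coats the inactive X chromosome of female cells, stood at 368, 0.467 and 0.688 CPM in the selected cells, and Y-linked *Ddx3y* at 13.0, 91.6 and 99.8 CPM. The Y-linked genes *Eif2s3y* (48.8, 70.1 and 53.0 CPM), *Uty* (22.8, 36.9 and 55.1 CPM) and *Kdm5d* (16.3, 27.6 and 31.7 CPM) lay closer together, with exact Poisson 95% intervals at P14 that overlapped both P28 intervals. In all other barcodes, a larger set described below, *Eif2s3y* was at 37.6, 71.0 and 64.0 CPM. There *Uty* was at 21.3, 35.6 and 40.6 CPM and *Kdm5d* at 8.17, 25.9 and 26.9 CPM. For each of these genes the P14 interval of that set lay below both P28 intervals. *Xist* was thus nearly absent from both P28 libraries, while the P14 library held RNA of both kinds, and age and the sex of the mice cannot be told apart here. No selected barcode sequence occurred in more than 1 library, although 10, 20 and 54 sequences of all deposited barcodes recurred between P14 and P28 replicate 1, P14 and P28 replicate 2, and the P28 libraries.

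Inner phalangeal and border cells are non-sensory cells that enclose the inner hair cell and the nerve endings below it. They are known for taking up the glutamate that the inner hair cell releases, through the transporter GLAST encoded by *Slc1a3*, and for carrying potassium and small metabolites away from the sensory cells through gap junctions built from the products of *Gjb2* and *Gjb6*. SOX2 is the transcription factor of the prosensory domain that cochlear supporting cells keep after birth. Deiters and pillar cells, their neighbours around the outer hair cells, share SOX2 and the gap junctions, and the epithelium of the sulci and Hensen cells on either side shares the gap junctions and carries the water channel encoded by *Aqp4*.

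Values of the genes in the rule are a description, because they chose the cells. *Slc1a3* (ENSMUSG00000005360, chromosome 15, 8634124 to 8710764, minus strand of mm10) stood at 225, 1029.8 and 1176 CPM in the selected cells. *Sox2* (ENSMUSG00000074637, chromosome 3, 34650405 to 34652461, plus strand) stood at 299, 371 and 445 CPM. *Gjb2* (ENSMUSG00000046352, chromosome 14, 57098600 to 57104702, minus strand) stood at 1019, 1131 and 1065 CPM, and *Gjb6* (ENSMUSG00000040055, chromosome 14, 57123303 to 57133611, minus strand), its neighbour on the same chromosome, at 342, 668 and 727 CPM. Of these 4 genes *Slc1a3* lay furthest apart between the ages, while *Gjb2* was nearly level across the libraries. The rule often rested on little RNA: 14, 97 and 104 of the selected cells held exactly 1 UMI of *Sox2*, and 12, 57 and 44 exactly 1 of *Slc1a3*.

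The limit on the 7 genes ran through a continuous range. Of the selected cells, 10, 38 and 36 held none of these genes, 10, 82 and 95 held 1, and 10, 152 and 137 held 2. Just outside, 12, 66 and 38 barcodes met every other condition but held 3. *Slc1a3* stood at 263, 1332 and 1416 CPM in the selected cells with 2 of the genes and at 336, 1402 and 1878 CPM in the barcodes with 3. Of the 7 genes *Ceacam16*, a protein of the tectorial membrane, stood at 195, 769 and 1218 CPM in the selected cells. *Slitrk6* stood at 212, 298 and 377 CPM, so that both genes were present in them. The 7 genes are called Deiters and pillar genes after the rule, but they were not confined to 1 cluster. Among the P28 clusters described below, *Slitrk6* stood at 592 CPM in the *Slc1a3*-richest and at 381 CPM in 1 led by *Fabp3* and *Tmem229a*. *Ceacam16* stood at 4199 CPM in the latter and at 8839 CPM in a cluster led by *Slc26a4*. Of the barcodes that met every other part of the rule, the limit on *Ocm* removed only 1 in each P28 library and none at P14.

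The label inner phalangeal and border cell found mixed support among marker genes that the rule did not use. Of the 4 such genes tested against all other barcodes 2 were higher, 1 was lower and 1 did not pass, beside 13.0% of all genes higher and 17.5% lower. None of 3 tested passed against the Deiters and pillar side described below (0.541% and 0.918% of all genes), and 1 was higher and 1 lower of 4 against the Aqp4 epithelial set (9.94% and 10.8%). *Gata3* (ENSMUSG00000015619, chromosome 2, 9857078 to 9890034, minus strand), a transcription factor of the cochlear duct, stood at 1399, 1159 and 1095 CPM against 781, 304 and 219.8 CPM in all other barcodes, a log2 difference of 1.69 ± 0.29, adjusted p = 0.005 (± is the SE throughout, and p is from edgeR with Benjamini-Hochberg adjustment). *Fabp7*, a fatty acid binding protein known from glia and supporting cells, stood at 176, 72.0 and 57.1 CPM against 95.8, 16.1 and 13.5 CPM, a difference of 1.72 ± 0.28, adjusted p = 0.0042. *Matn4* (ENSMUSG00000016995, chromosome 2, 164389393 to 164405160, minus strand), an extracellular matrix protein and the only marker given for the label that the rule left out, went the other way. It had 3, 1 and 3 UMIs in all the selected cells together, or 9.76, 0.467 and 2.06 CPM against 31.0, 6.84 and 5.71 CPM in all other barcodes, and the fitted difference was -2.20 ± 0.49, adjusted p = 0.014. In the selected cells of the *Slc1a3*-richest cluster described next the same differences were 1.54 for *Gata3*, 0.55 for *Fabp7* and -3.33 for *Matn4*, and of the 4 genes 1 was higher and 2 were lower there. Since *Matn4* had no more than 3 UMIs in any library, and since the cells were of several kinds, they are called here by the rule, as the selected cells, and are not given a cell type name.

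The selected cells did not form 1 cluster. All barcodes were clustered at each age without the 12 genes of the rule, and among clusters with at least 100 CPM of *Sox2* the 1 with the highest *Slc1a3* level was followed, called the *Slc1a3*-richest cluster. At P14 a cluster led by *Cp*, *Apod* and *Ptn*, with 0 UMIs of *Sox2*, had more *Slc1a3* (1200 CPM) than the cluster so chosen (1015 CPM). At P28 the *Slc1a3*-richest cluster held 132 of the 272 and 145 of the 268 selected cells (48.5% and 54.1%). It was led by *Rorb*, *Otog*, *Far1*, *Fibin*, *Otogl* and *Slc12a7*, and its 575 barcodes also took in 72 of the barcodes with *Sox2*, a connexin and 3 or more of the 7 Deiters and pillar genes. A further 51 and 40 cells (18.75% and 14.9%) lay in a cluster led by the inner hair cell genes *Otof*, *Slc17a8*, *Pcp4* and *Calb2*. Clusters with *Epyc*, *Lockd* or *Aqp4* among their leading genes held 62 and 45 (22.8% and 16.8%), among them 30 and 19 in a cluster led by *Mia*, *Prss36* and *Epyc* and 22 and 21 in a cluster led by *Lockd* and *S100a13*. The remaining 27 and 38 were spread over 10 and 14 other clusters. Because the clusters were built from the genes themselves, fold changes and calls given below for the cells of a cluster are a description and no independent test.

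At P14 the balance was another. Only 6 of the 30 cells (20%) lay in the *Slc1a3*-richest cluster, which was led by *Gsn*, *Mia*, *6330411D24Rik* and *Ano1*, whereas 22 (73.3%) lay in 3 clusters with *Epyc* among their leading genes. Of the 54 barcodes of that cluster, 19 held *Sox2*, a connexin and 3 or more of the 7 Deiters and pillar genes. In the cluster as a whole *Otol1* stood at 828 CPM at P14 and at 26.1 and 40.7 CPM at P28. Of the barcodes in it, 11.1% were selected at P14 and 48.2% at P28. One P14 cell lay in the cluster of macrophage genes (*C1qa*, *Lyz2*, *Mrc1*) and was among the 5% of P14 barcodes with the highest doublet scores.

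**Figure D1:**
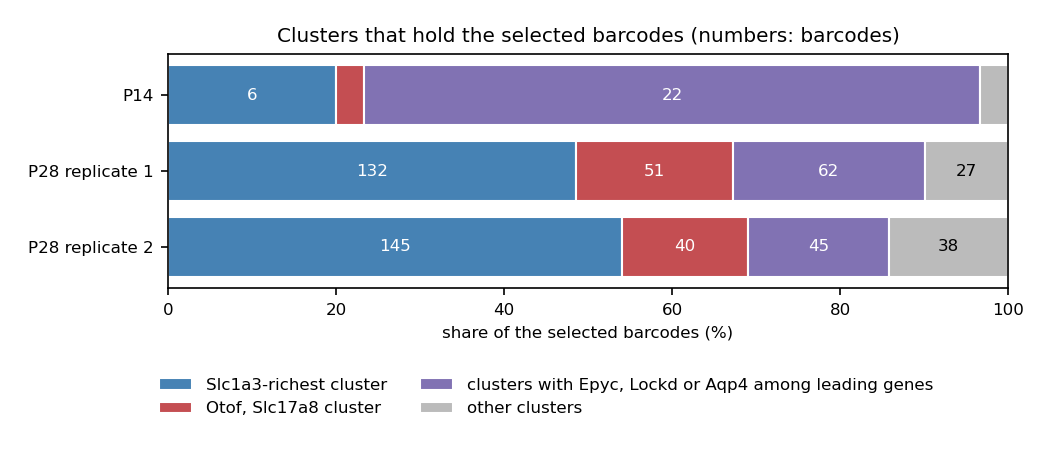
Share of the selected barcodes of each library (horizontal axis, %) that lay in each kind of cluster, with the number of barcodes in bars over 5%. At P28 the *Slc1a3*-richest cluster held 132 and 145 barcodes, while at P14 it held 6 of 30.

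Inner hair cell RNA set a distinct fraction of the selected cells apart. *Otof* (ENSMUSG00000062372, chromosome 5, 30367062 to 30461932, minus strand), the calcium sensor of the hair cell synapse, and *Slc17a8* (ENSMUSG00000019935, chromosome 10, 89574020 to 89621253, minus strand), which loads glutamate into the synaptic vesicles of inner hair cells, were counted together in each cell. Of the selected cells, 27, 205 and 208 had no UMI of either gene and 2, 11 and 17 had 1, whereas 1, 50 and 39 had more than 10. Cells between these extremes were few, with 2 to 10 UMIs in 0, 6 and 4. The 1, 56 and 43 cells with 2 or more UMIs had a median of 54, 47 and 39 of them, and a median of 14809, 10626.5 and 9255 UMIs of all genes, against 7176, 5234 and 3724 in the other selected cells.

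In the cells with 2 or more such UMIs the hair cell genes and the genes of the rule stood side by side. *Otof* was at 2498, 2581 and 2534 CPM there and at 6.84, 6.60 and 12.3 CPM in the other selected cells. In barcodes with as many of these UMIs but none of *Sox2* or *Slc1a3*, *Otof* was at 3262, 4126 and 2822 CPM. *Slc1a3*, which the rule required, was at 405, 876 and 1039 CPM in the cells with hair cell UMIs. *Pcp4*, a calmodulin regulator found in hair cells, was at 6009.9, 5298 and 5201 CPM in them and at 176, 59.9 and 94.0 CPM in the selected cells of the *Slc1a3*-richest cluster. Prestin (*Slc26a5*), the motor protein of outer hair cells, had 0, 3 and 2 UMIs in all the selected cells. Of the cells with hair cell UMIs, 0%, 8.93% and 0% were among the 5% of barcodes with the highest doublet scores of their library, and of the other selected cells 3.45%, 5.09% and 8.44%. Whether such barcodes are droplets that held an inner hair cell together with a supporting cell, or cells with both RNAs, was not tested. Each result below that they decide is therefore also given without them. Barcodes with as many of these UMIs were then also left out of the 2 sets of neighbouring epithelial cells described below, leaving 33, 86 and 45 barcodes on the Deiters and pillar side and 187, 298 and 265 in the Aqp4 epithelial set, but they stayed in all other barcodes.

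**Figure D2:**
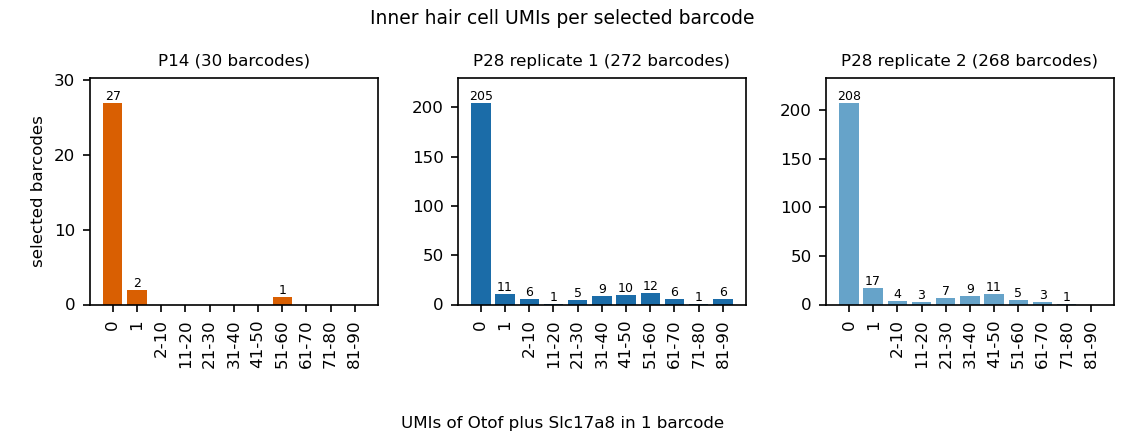
Number of selected barcodes (vertical axis) by the summed UMIs of *Otof* and *Slc17a8* in the barcode (horizontal axis), 1 panel per library. At P28 205 and 208 barcodes had 0, few had 2 to 10, and 50 and 39 had more than 10.

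RNA of other cell types was also present, and that of hair cells was not low. The 11 hair cell markers summed to 1081, 5386 and 4908 CPM in the selected cells, with *Pcp4* the most abundant in each library, against 1732, 1433 and 1107 CPM in all other barcodes, and to 311, 355 and 429 CPM without the cells just described. The 7 fibrocyte and fibroblast markers summed to 176, 713 and 1489 CPM against 4140.1, 4498 and 5758 CPM in all other barcodes. Their most abundant genes were *Dcn* at P14 and *Otos* at P28, and *Col1a1* and *Col3a1* were at 0 at P14. The 12 Schwann and satellite glia markers summed to 514, 618 and 565 CPM against 1763, 570.2 and 547 CPM, led by *Sox10* (221, 241 and 269.8 CPM), a gene that cochlear supporting cells also express. The 6 neuronal markers summed to 16.3, 239.8 and 275 CPM against 31.7, 2559.9 and 2289 CPM, led by *Nefl* at P14 and *Snap25* at P28. The 7 macrophage markers summed to 452, 19.2 and 76.4 CPM against 1106, 592 and 434 CPM, led by *C1qa*. The 7 markers of the stria and lateral wall summed to 26.0, 66.8 and 208 CPM against 215, 424 and 850.5 CPM. The 4 haemoglobin genes summed to 159, 1399.6 and 3428 CPM against 25012, 13511 and 18102 CPM, and the 4 B cell markers to 0, 1.87 and 1.38 CPM against 313, 35.4 and 32.8 CPM. The markers of Reissner's membrane, *Vmo1* and *Slc26a7*, summed to 0, 25.7 and 16.5 CPM against 268, 599 and 389 CPM. The selected cells thus lay above all other barcodes in the hair cell and glial sums at P28, and below them in the other sums. The limit on *Ocm* had taken 263, 363 and 282 barcodes out of all other barcodes, so the hair cell sum of that set leaves out the barcodes richest in *Ocm*. The part of this RNA in the comparisons that follow was not tested.

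**Figure D3:**
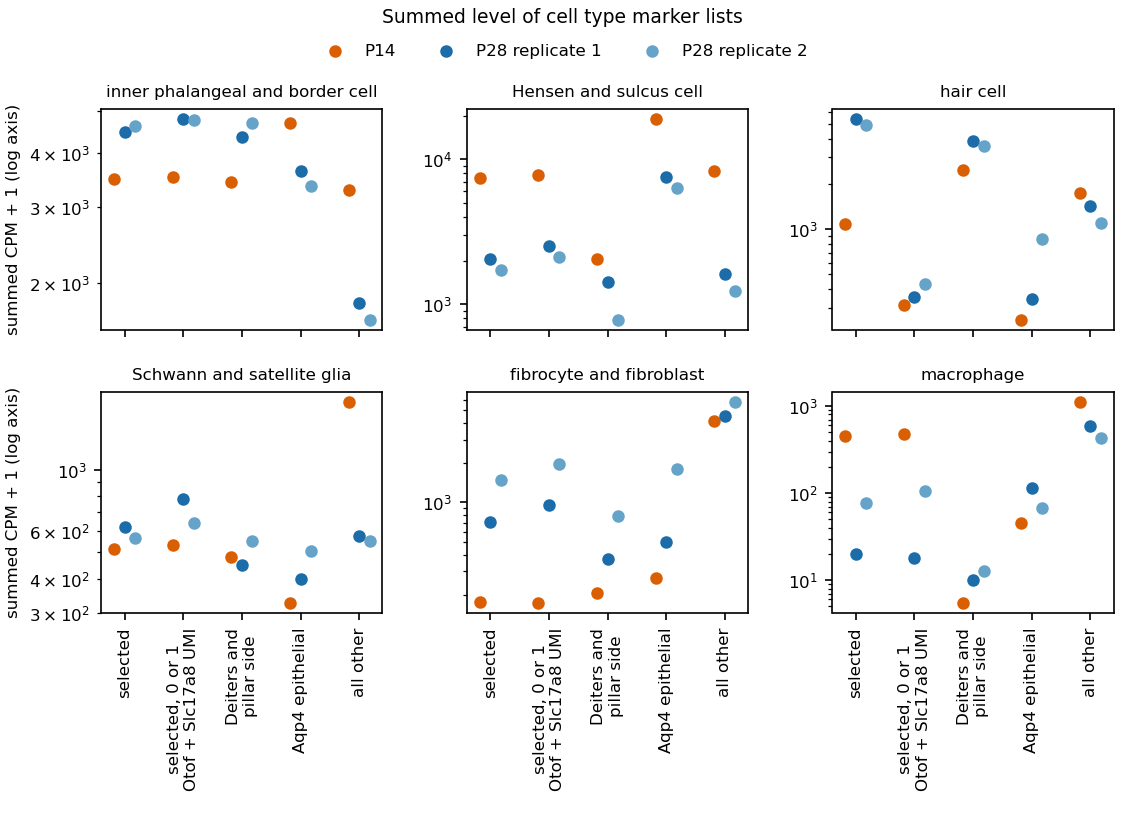
Summed CPM of 6 marker lists (vertical log axis, 1 CPM added) in the selected barcodes, those with 0 or 1 UMI of *Otof* and *Slc17a8*, and the 3 comparison sets, with 1 point per library. The hair cell sum was 1081, 5386 and 4908 CPM in all selected barcodes and 311, 355 and 429 CPM in those with 0 or 1 such UMI.

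The 20 most abundant genes of the selected cells included genes of calcium binding and of protein turnover. *Malat1*, a nuclear RNA, was first with 49259, 17193 and 20410.2 CPM and *S100a1*, a calcium-binding protein, was next with 19199, 17594 and 14585 CPM. *Skp1a* and *Fbxo2*, both parts of an F-box ubiquitin ligase known to be abundant in the organ of Corti, stood at 9442, 6392 and 6879.6 CPM and 10252, 4704 and 4302 CPM. The extracellular matrix gene *Epyc* (6724, 1793 and 1467 CPM) and *Mia* (7941, 417 and 312 CPM) were also among the 20 most abundant, both with a higher level at P14 than at P28. CPM from 3′ counting is not divided by gene length, because each RNA gives 1 tagged end.

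The selected cells were first compared with all other barcodes within the same limits (1369, 5016 and 6515 barcodes), as a sum per library against a sum per library with the library as a block. These barcodes, like the other comparison sets, also met the limit on *Ocm*, and the genes of the rule were not counted. With 13013 genes tested and a threshold of 0.05 on the adjusted p, 1696 stood higher (13.0%) and 2278 lower (17.5%) in the selected cells. The named genes are those with the largest changes among genes that passed, had the same direction in 3 of 3 libraries and had at least 100 CPM on the higher side in each library.

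Of the 10 genes that rose most, *Otog* and *Otogl* encode glycoproteins of the inner ear's acellular membranes. *Otog* (ENSMUSG00000009487, chromosome 7, 46240987 to 46311434, plus strand) was at 133, 487 and 542 CPM against 60.1, 75.9 and 62.0 CPM, a log2 difference of 2.42 ± 0.37, adjusted p = 0.0031. Its relative *Otogl* was at 107, 302 and 306 CPM against 60.4, 54.1 and 40.6 CPM (2.20 ± 0.38, adjusted p = 0.0053). *Spock1* (ENSMUSG00000056222, chromosome 13, 57421195 to 57908332, minus strand), a matrix proteoglycan, had the largest change of the 10 and was at 208, 201 and 220.2 CPM against 64.1, 26.8 and 19.1 CPM (2.75 ± 0.35, adjusted p = 0.0015). *Fibin* was at 169, 393 and 382 CPM against 53.0, 79.2 and 55.0 CPM (2.29 ± 0.23, adjusted p = 0.00071), the non-coding RNA *Lockd* at 794, 407 and 387 CPM against 191, 89.4 and 67.2 CPM (2.24 ± 0.15, adjusted p = 0.0003) and the zinc finger factor *Sall2* at 192, 282 and 322 CPM against 52.5, 61.3 and 59.1 CPM (2.18 ± 0.17, adjusted p = 0.00037). That the selected cells lay above the other barcodes in every library follows from how these genes were named. The remaining ones were *Smpx*, *Lrrc10b*, *Hspa2* and *Pxdc1*, with log2 fold changes from 2.18 to 2.46. *Lrrc10b* rested on the cells with hair cell UMIs: without them its log2 fold change was 0.20 (adjusted p = 0.46). *Smpx*, *Pxdc1*, *Spock1* and *Hspa2* also had smaller changes without them, at 1.25, 1.06, 2.21 and 1.68, but kept their call.

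The 10 genes that fell most included markers of other tissues of the cochlea. *Vmo1*, a marker of Reissner's membrane, was at 0, 22.4 and 11.7 CPM against 235, 515 and 325 CPM (-4.78 ± 0.32, adjusted p = 0.00028). *Coch*, the cochlin of fibrocytes, was at 3.25, 178 and 426 CPM against 909, 1680.0 and 2067 CPM (-3.38 ± 0.60, adjusted p = 0.0062), and the lipocalin *Apod* at 19.5, 199 and 564 CPM against 1219, 1801 and 2191 CPM (-3.22 ± 0.56, adjusted p = 0.0057). *Lrp2*, an endocytic receptor, was at 6.51, 12.6 and 11.7 CPM against 105, 145 and 146 CPM (-3.61 ± 0.19, adjusted p = 0.00024). The others were *Sparcl1*, *Rnase1*, *Slco1c1*, *Emilin2*, *Cp* and *Ifitm1*, with log2 fold changes from -3.61 to -3.27. *Vmo1*, *Sparcl1*, *Slco1c1* and *Ifitm1* had no UMI in the selected cells at P14, where a count of 0 allows up to 9.76 CPM (3 counts of the total), so their fitted differences depend on the prior count. Leaving out P28 replicate 1 lowered the calls to 275 higher and 827 lower and ended those of *Smpx* and *Lrrc10b*. Without P28 replicate 2 there were 601 and 1314, and without P14 3509 and 4120. When the same tests were restricted to the selected cells of the *Slc1a3*-richest cluster, 9 of the 10 higher genes and all 10 lower genes kept their direction and call, the exception being *Lrrc10b*.

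**Figure D4:**
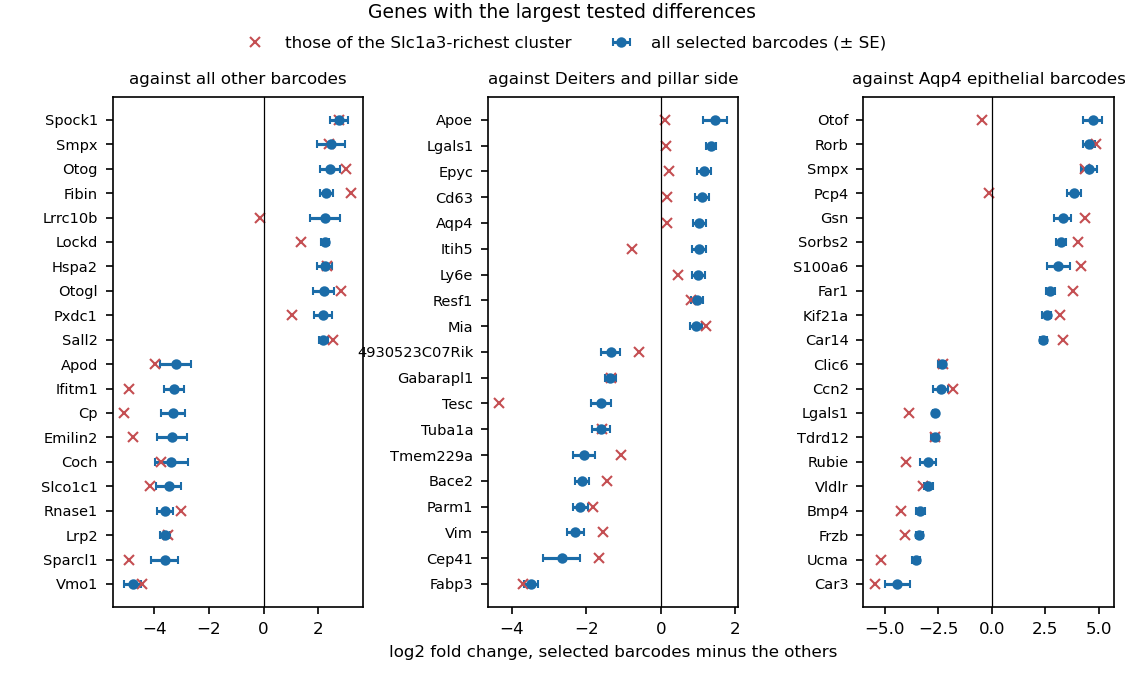
Log2 fold change of the most raised and most lowered genes in each comparison (horizontal axis), with the gene on the vertical axis, circles for all selected barcodes with ± 1 SE and crosses for those of the *Slc1a3*-richest cluster. Of the named genes, only *Lrrc10b* moved to the other side of 0 for the *Slc1a3*-richest cells against all other barcodes. Against the Deiters and pillar side *Itih5* did, and against Aqp4 epithelial barcodes *Otof* and *Pcp4* did.

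The nearest neighbours were barcodes with *Sox2*, a connexin and 3 or more of the 7 genes, the Deiters and pillar side (36, 102 and 52 barcodes). This name follows the rule, and which cell types the set held was not tested. Of this set 52.8%, 44.1% and 51.9% lay in the *Slc1a3*-richest cluster, which held 20%, 48.5% and 54.1% of the selected cells. Few genes separated them: 46 of 8497 genes were higher (0.541%) and 78 lower (0.918%) in the selected cells.

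Of the named genes *Fabp3* differed most from the Deiters and pillar side and was lower. *Fabp3* (ENSMUSG00000028773, chromosome 4, 130308595 to 130315463, plus strand), a fatty acid binding protein, was at 94.4, 109 and 68.1 CPM against 1893, 898 and 725 CPM, a log2 difference of -3.49 ± 0.20, adjusted p = 4.8e-06. The intermediate filament gene *Vim* was at 13.0, 97.2 and 109 CPM against 215, 502 and 386 CPM (-2.30 ± 0.22, adjusted p = 0.00047) and the tubulin gene *Tuba1a* at 231, 187 and 189 CPM against 1401, 463 and 391 CPM (-1.61 ± 0.23, adjusted p = 0.0055). *Cep41*, a protein of centrioles and cilia, was at 9.76, 37.4 and 49.6 CPM against 1048, 157 and 133 CPM (-2.67 ± 0.50, adjusted p = 0.022). The gap of *Cep41* and *Tuba1a* was widest at P14. Of 16 genes of the cytoskeletal list tested here *Vim* and *Tuba1a* were lower, *Tmsb4x*, which encodes an actin-binding thymosin, was higher (0.91 ± 0.15, adjusted p = 0.011), and 13 did not pass, beside 0.541% of all genes higher and 0.918% lower. *Parm1*, *Bace2*, *Tmem229a*, *Tesc*, *Gabarapl1* and *4930523C07Rik* were also lower, with log2 fold changes from -2.16 to -1.35. That of *Tesc* was -1.60, and without the cells with hair cell UMIs on both sides -3.15.

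Among the genes that were higher than on the Deiters and pillar side were 4 of 5 tested Hensen and sulcus markers, *Aqp4*, *Bmp4*, *Epyc* and *Ucma*, beside 0.541% of all genes. When the selected cells were restricted to the *Slc1a3*-richest cluster 1 of 3 tested was. The list of lipid carriers and secreted proteins had 1 higher gene, *Apoe*, and 2 lower, *Fabp3* and *Sparc*, of 11. *Lgals1* (ENSMUSG00000068220, chromosome 15, 78926725 to 78930465, plus strand), a galectin, was at 5604, 2495 and 1679 CPM against 1625, 1283 and 664 CPM, a log2 difference of 1.36 ± 0.14, adjusted p = 0.00056. *Epyc* was at 6724, 1793 and 1467 CPM against 1880.1, 1275 and 661 CPM (1.15 ± 0.19, adjusted p = 0.011), the apolipoprotein gene *Apoe* at 1494, 461 and 655 CPM against 198, 275 and 345 CPM (1.46 ± 0.32, adjusted p = 0.047) and *Aqp4* at 176, 160.3 and 164 CPM against 64.4, 87.1 and 84.1 CPM (1.04 ± 0.17, adjusted p = 0.011). *Cd63*, *Itih5*, *Ly6e*, *Resf1* and *Mia* were also among the 10. Most of these differences were small or reversed once the selected cells were restricted to the *Slc1a3*-richest cluster: there *Lgals1* differed by 0.13, *Epyc* by 0.22, *Apoe* by 0.10 and *Itih5* by -0.79, and 3 of the 10 genes, *Resf1* and *Mia* among them, kept their call. Of the 10 lower genes, 9 kept theirs in that cluster, *Fabp3* with a log2 fold change of -3.70.

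How many genes separated the sets hung on single libraries and on the makeup of the sets. Without P28 replicate 1 there were 4 higher and 5 lower genes, and *Lgals1*, *Epyc*, *Mia*, *Fabp3*, *Parm1* and *Bace2* were the only named genes still called. Without P28 replicate 2 there were 8 and 39 (of the 10 higher genes *Lgals1*, *Itih5* and *Ly6e*), and without P14 170 and 230. Without the cells with hair cell UMIs in both sets 142 were higher and 194 lower. When the Deiters and pillar side was restricted to barcodes with no UMI of *Slc1a3* (11, 24 and 11), 187 were higher and 236 lower, all 20 named genes kept direction and call, and the log2 fold change of *Lgals1* was 3.28.

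Against barcodes with *Aqp4*, a connexin, no UMI of *Slc1a3* and no more than 2 of the 7 genes (187, 299 and 269 barcodes, the Aqp4 epithelial set), 1012 of 10186 genes were higher (9.94%) and 1098 lower (10.8%) in the selected cells. *Rorb* (ENSMUSG00000036192, chromosome 19, 18930605 to 19111196, minus strand), a nuclear receptor, was at 234, 706 and 806 CPM against 5.20, 14.4 and 52.3 CPM, a log2 difference of 4.55 ± 0.29, adjusted p = 4.7e-06. *Gsn*, the actin-severing protein gelsolin, was at 2285, 479.6 and 662 CPM against 57.9, 73.3 and 88.1 CPM (3.31 ± 0.40, adjusted p = 0.00019). *Far1*, an enzyme of ether lipid synthesis, was at 329, 1348 and 1717 CPM against 67.7, 149 and 153 CPM (2.74 ± 0.22, adjusted p = 1.7e-05), and the membrane carbonic anhydrase *Car14* at 241, 263 and 328 CPM against 32.5, 38.7 and 58.1 CPM (2.41 ± 0.17, adjusted p = 5.8e-06). These 4 genes were each higher still in the selected cells of the *Slc1a3*-richest cluster, with log2 fold changes of 4.86, 4.36, 3.79 and 3.34. *Smpx*, *Sorbs2*, *S100a6* and *Kif21a* were higher by 2.56 to 4.54. *Otof* (4.72) and *Pcp4* (3.84) completed the 10, and both rested on the cells with hair cell UMIs. Without those cells *Otof* was not tested and *Pcp4* was at 0.71 (adjusted p = 0.086).

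The 10 genes that were lowest beside the Aqp4 epithelial set included *Bmp4* and *Frzb*, which encode secreted signalling proteins. *Bmp4*, a bone morphogenetic protein of the outer sulcus side, was at 71.6, 24.8 and 15.8 CPM against 398, 202 and 196 CPM (-3.35 ± 0.21, adjusted p = 4.7e-06), and *Frzb*, a secreted Wnt antagonist, at 61.8, 47.7 and 37.2 CPM against 695, 365 and 298 CPM (-3.39 ± 0.18, adjusted p = 1.9e-06). *Ucma* was at 404, 39.3 and 21.3 CPM against 2773, 395 and 288 CPM (-3.53 ± 0.19, adjusted p = 1.8e-06) and *Lgals1* at 5604, 2495 and 1679 CPM against 26425, 13866 and 8812 CPM (-2.66 ± 0.10, adjusted p = 2.2e-07). *Car3*, a carbonic anhydrase, had the largest drop (-4.42 ± 0.59, adjusted p = 0.00041) with 3.25, 125 and 106 CPM against 3644, 1373 and 947 CPM. *Vldlr*, *Rubie*, *Tdrd12*, *Ccn2* and *Clic6* were also lower, with log2 fold changes from -2.98 to -2.34. In the sums of all selected cells *Lgals1* and *Epyc* therefore lay above the Deiters and pillar side and below the Aqp4 epithelial set in all 3 libraries. For the selected cells of the *Slc1a3*-richest cluster alone they differed from the Deiters and pillar side by only 0.13 and 0.22, without a call. All 10 lower genes kept direction and call without each library in turn, without the cells with hair cell UMIs and within the *Slc1a3*-richest cluster. The counts were 514 higher and 527 lower without P28 replicate 1, 533 and 420 without P28 replicate 2 and 1609 and 1642 without P14, and 606 genes were higher without the cells with hair cell UMIs in both sets.

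Of the genes of glutamate handling outside the rule, 10 of 11 were tested against all other barcodes. Of these 1 was higher and 4 were lower, beside 13.0% and 17.5% of all genes, and the list's median log2 fold change was -0.56. *Glul*, the glutamine synthetase that turns glutamate into glutamine, was at 111, 197 and 248 CPM against 232, 266 and 362 CPM (-0.65 ± 0.17, adjusted p = 0.027). *Slc38a2*, a glutamine transporter, was at 495, 306 and 262 CPM against 351, 215 and 207 CPM (0.43 ± 0.12, adjusted p = 0.036). The other lower genes were *Slc1a2*, *Got1* and *Slc7a11*. *Slc1a2*, the second glial glutamate transporter, stood at 0, 10.8 and 29.6 CPM and *Slc1a1* at 0, 0 and 0.688 CPM. Against the Aqp4 epithelial set 2 of 7 tested were higher, among them *Slc38a1* (1.56 ± 0.30, adjusted p = 0.0036), and 0 were lower, beside 9.94% and 10.8% of all genes. Without the cells with hair cell UMIs 1 was higher and 6 lower against all other barcodes, and *Glul* no longer passed (-0.50, adjusted p = 0.058). Against the Aqp4 epithelial set *Slc38a1* then lost its call (-0.07, adjusted p = 0.88) and *Glud1* was the 1 higher gene. None of 7 passed against the Deiters and pillar side.

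The gap junction genes outside the rule were at low levels where they are described here. *Gjb1* had at most 1.40 CPM in any library, *Gjb5* had 0 UMIs in each library, and *Gja1* was at 0, 0 and 9.64 CPM. *Gjc1*, *Panx1* and *Panx2* were lower than in all other barcodes, 3 of the 4 genes tested outside the rule (17.5% of all genes), and each stood below 7 CPM.

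Potassium and chloride transport genes moved in both directions. Against all other barcodes 5 of 19 were higher and 6 lower (13.0% and 17.5% of all genes). *Kcnj10*, the inward rectifier channel of supporting cells and glia, was at 97.6, 144 and 191 CPM against 75.1, 35.4 and 53.0 CPM (1.53 ± 0.32, adjusted p = 0.011), and its partner *Kcnj16* at 504, 481 and 458 CPM against 453, 132 and 102 CPM (1.42 ± 0.39, adjusted p = 0.03). *Slc12a7*, a potassium-chloride cotransporter, was at 231, 984 and 958 CPM against 109.7, 248 and 195 CPM (1.81 ± 0.25, adjusted p = 0.0021) and was also higher than in the Aqp4 epithelial set (1.41 ± 0.16, adjusted p = 0.00011). *Clcn3* was also higher, but without the cells with hair cell UMIs it did not pass (adjusted p = 0.14). The lower ones included *Atp1b3*, *Clcn2*, *Kcnk2* and *Slc12a4*. Against the Deiters and pillar side 2 of 16 tested were higher and 0 lower, beside 0.541% and 0.918% of all genes. The sodium pump beta subunit *Atp1b1* was among the higher ones. Against the Aqp4 epithelial set 6 of 18 tested were higher and 3 lower, beside 9.94% and 10.8% of all genes. The beta subunits *Atp1b2* and *Atp1b3* were among the higher ones there, and *Fxyd6* among the lower.

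Genes of purinergic signalling, which raises calcium in supporting cells, moved in both directions. Of 11 genes tested against all other barcodes 5 were higher and 5 lower, beside 13.0% and 17.5% of all genes, and without the cells with hair cell UMIs the same genes passed. *P2ry1* was at 45.6, 29.5 and 26.8 CPM against 14.3, 11.4 and 14.1 CPM (1.25 ± 0.20, adjusted p = 0.0035), *P2ry2* at 13.0, 20.6 and 25.5 CPM against 6.08, 5.49 and 5.08 CPM (1.98 ± 0.28, adjusted p = 0.0025) and the channel gene *P2rx2* at 322, 143 and 154 CPM against 197, 66.9 and 50.6 CPM (1.13 ± 0.20, adjusted p = 0.0062). *Ano1*, the calcium-activated chloride channel that serves the spontaneous activity of the cochlea before hearing begins, was at 247, 8.88 and 8.26 CPM against 56.3, 2.25 and 2.15 CPM (2.00 ± 0.18, adjusted p = 0.00052). *Entpd2*, an enzyme that degrades ATP outside the cell, was the other higher gene, and *Ano6*, *Entpd1*, *Nt5e*, *P2rx7* and *P2ry6* were lower. *Ano1* also exceeded the Aqp4 epithelial set (2.37 ± 0.39, adjusted p = 0.0017), with *P2ry1* and *P2ry2*, 3 of 7 tested (9.94% of all genes). None of 5 passed against the Deiters and pillar side.

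Trophic factors showed 4 higher and 5 lower genes of 11 tested against all other barcodes, beside 13.0% and 17.5% of all genes, and 3 of the 4 higher genes lost their call without the cells with hair cell UMIs. *Bdnf*, a neurotrophin, was at 6.51, 74.3 and 81.2 CPM against 20.9, 9.93 and 8.30 CPM (2.57 ± 0.53, adjusted p = 0.01). *Ntf3*, the neurotrophin of supporting cells for the afferent neurons, was at 0, 11.7 and 15.1 CPM against 5.13, 2.25 and 1.32 CPM (2.40 ± 0.64, adjusted p = 0.028), and *Gdnf* at 0, 8.88 and 17.2 CPM against 4.37, 2.40 and 2.59 CPM (1.99 ± 0.55, adjusted p = 0.031). *Bdnf* was at 135, 213 and 250.1 CPM in the cells with hair cell UMIs and at 0, 17.2 and 18.8 CPM in the other selected cells, where its difference from all other barcodes did not pass (0.58, adjusted p = 0.41). *Ntf3* and *Gdnf* were too low to be tested without the former, *Erbb3* was still higher, and *Erbb4* then passed as well. *Erbb3*, a neuregulin receptor, was higher (1.47 ± 0.15, adjusted p = 0.00075), and *Ptn* (391, 941 and 1473 CPM, -2.74 ± 0.25, adjusted p = 0.00053), *Mdk*, *Nrg1*, *Ntrk2* and *Ntrk3* were lower. *Ptn*, a secreted growth factor, was higher than in the Aqp4 epithelial set (1.83 ± 0.15, adjusted p = 1.7e-05), as were *Mdk* and *Erbb4*. These were 3 of 6 tested, beside 9.94% of all genes. For the selected cells of the *Slc1a3*-richest cluster 1 of 4 tested was higher than in that set.

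Of the genes of the Notch pathway and SOX factors, 12 of 17 tested were higher than in all other barcodes and 1 was lower, beside 13.0% and 17.5% of all genes. The list's median log2 fold change was 1.31, and that of all genes tested was -0.04. Among the transcriptional repressors that Notch induces, *Hes1* was at 182, 196 and 239 CPM (2.02 ± 0.35, adjusted p = 0.0054), *Hey1* at 176, 106 and 89.5 CPM (1.87 ± 0.17, adjusted p = 0.00056) and *Heyl* at 137, 236 and 223 CPM (2.02 ± 0.32, adjusted p = 0.0038). *Hey2* was at 71.6, 63.6 and 66.8 CPM (1.79 ± 0.18, adjusted p = 0.00075), the lowest of these 4 genes. Of the ligands and modifiers, *Jag1* was at 91.1, 208 and 266 CPM against 41.2, 60.8 and 40.4 CPM (1.96 ± 0.29, adjusted p = 0.0029), and *Lfng*, a glycosyltransferase that tunes the receptor, at 71.6, 101 and 118 CPM against 28.9, 14.4 and 11.8 CPM (2.67 ± 0.34, adjusted p = 0.0016). *Notch1*, *Notch3*, *Id1*, *Id2*, *Sox9* and *Sox10* were the other higher genes, and *Rbpj*, the DNA-binding partner of Notch, was lower (-0.71 ± 0.15, adjusted p = 0.01). The ligand genes *Dll1* and *Dll4* had no more than 1 CPM. *Lfng* was also higher than in the Aqp4 epithelial set (4.02 ± 0.28, adjusted p = 5.8e-06), with *Hes1*, *Jag1* and *Sox9* also higher and *Id3* lower. These were 4 higher and 1 lower of 17 tested, beside 9.94% and 10.8% of all genes. For the selected cells of the *Slc1a3*-richest cluster 5 of 16 were higher and 5 lower than in that set. Against the Deiters and pillar side *Jag1* was lower (-0.97 ± 0.16, adjusted p = 0.011) and *Id3* higher (0.60 ± 0.12, adjusted p = 0.037) in the selected cells. These were 1 higher and 1 lower of 15 tested, beside 0.541% and 0.918% of all genes. For the selected cells of the *Slc1a3*-richest cluster 0 of 15 were higher and 1 was lower than on that side. Without the cells with hair cell UMIs the list had 12 higher and 2 lower members against all other barcodes. Against the Aqp4 epithelial set 6 of 16 were then higher and 0 lower, and *Id3* no longer passed (adjusted p = 0.06).

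Wnt and LGR genes were split, with 8 higher and 8 lower of 17 against all other barcodes, beside 13.0% and 17.5% of all genes. *Wnt7b* (52.1, 92.1 and 105 CPM, 1.87 ± 0.27, adjusted p = 0.0024), *Wnt7a*, the receptors *Fzd3*, *Fzd6* and *Fzd9*, the antagonist *Sfrp1* (299, 213 and 201 CPM, 1.73 ± 0.15, adjusted p = 0.0005) and *Lgr5* and *Lgr6*, receptors of R-spondins, were higher. *Lgr5* stood at 26.0, 28.0 and 34.4 CPM and *Lgr6* at 16.3, 41.6 and 46.1 CPM. The R-spondins *Rspo1*, *Rspo2* and *Rspo3*, with *Axin2*, *Dkk3*, *Frzb*, *Fzd1* and *Sfrp2*, were lower. The 8 higher genes kept their call without the cells with hair cell UMIs, whereas *Frzb* (-0.90, adjusted p = 0.056) and *Sfrp2* (-1.02, adjusted p = 0.14) did not.

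Tight junction and adhesion genes, which seal epithelia, had 11 of 15 higher and 1 lower against all other barcodes (13.0% and 17.5% of all genes). *Cldn9* was at 635, 424 and 436 CPM against 261, 149.9 and 109.8 CPM (1.57 ± 0.18, adjusted p = 0.00095), *Epcam* at 1519.9, 411 and 467 CPM against 531, 156 and 124 CPM (1.59 ± 0.14, adjusted p = 0.00052), and *Marveld2*, which encodes tricellulin, at 26.0, 33.2 and 25.5 CPM against 10.1, 5.89 and 4.69 CPM (2.27 ± 0.28, adjusted p = 0.0013). *Cldn3*, *Cldn6*, *Cldn7*, *Cldn14*, *Cgn*, *Ildr1*, *Lsr* and *Ocln* were the others, and *Tjp1* was lower (-1.27 ± 0.14, adjusted p = 0.00094). None of 14 passed against the Deiters and pillar side, and 3 of 14 (*Cdh2*, *Cgn* and *Marveld2*) were higher than in the Aqp4 epithelial set (9.94% of all genes). *Ocln* lost its call against all other barcodes without the cells with hair cell UMIs (adjusted p = 0.13), and against the Aqp4 epithelial set *Cgn* (adjusted p = 0.67) and *Marveld2* (adjusted p = 0.16) lost theirs, while *Cdh2* kept it and *Epcam* gained one.

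Of the tectorial membrane and otogelin genes outside the rule, *Otog*, *Otogl* and *Tectb* were higher and *Col9a2* and *Matn4* lower of 11 tested against all other barcodes (13.0% and 17.5% of all genes, here and for the lists that follow). *Tectb*, which encodes beta-tectorin, was at 260.4, 39.7 and 22.0 CPM against 126, 19.3 and 4.93 CPM (1.29 ± 0.24, adjusted p = 0.0072) but below the Deiters and pillar side at 699, 199 and 55.1 CPM (-1.79 ± 0.21, adjusted p = 0.0011). Of 10 tested against that side *Col11a1* and *Epyc* were higher and only *Tectb* lower, beside 0.541% and 0.918% of all genes. Without the cells with hair cell UMIs in both sets *Otog* and *Otogl* were also lower there, and *Col9a1* was also higher. Against the Aqp4 epithelial set 3 were higher, again *Otog*, *Otogl* and *Tectb*, and 7 lower (9.94% and 10.8% of all genes), among them *Epyc* (-1.93 ± 0.14, adjusted p = 6.1e-06) and *Col11a1* (-1.44 ± 0.17, adjusted p = 0.00018). In the cytoskeletal list *S100a1*, *Gsn* and *Tubb2b* were higher and *Actb*, *S100b* and *Tuba1a* lower of 16 tested. The list of lipid carriers and secreted proteins had 2 higher genes, *Sparc* (5178, 1255 and 1328 CPM, 1.01 ± 0.19, adjusted p = 0.0073) and *Fabp7*, and 10 lower of 14, among them *Ptgds* (-1.17 ± 0.14, adjusted p = 0.0013) and *Apoe* (-2.26 ± 0.18, adjusted p = 0.00037). Of 18 antioxidant and metallothionein genes 2 were higher, *Gpx2* (257, 1318 and 1311 CPM, 1.26 ± 0.35, adjusted p = 0.03) and *Gpx4*, and 7 lower, and the share of higher genes lay near that of all genes. Of 14 immediate early and heat shock genes, which respond to dissociation, *Ier2* and *Jun* were higher and *Hspa1a* and *Hspb1* lower. Without the cells with hair cell UMIs *Col9a2* (adjusted p = 0.21), *Actb* (adjusted p = 0.18), *Fabp3* (adjusted p = 0.12), *Gpx2* (adjusted p = 0.081), *Prdx1* (adjusted p = 0.2) and *Hspa1a* (adjusted p = 0.057) lost their call against all other barcodes, and *Epyc*, *Gsta4* and *Hsp90aa1* gained one.

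Most markers of fibrocytes, macrophages, neurons, blood and B cells, Reissner's membrane and the lateral wall were lower in the selected cells. Against all other barcodes all 7 fibrocyte, 7 macrophage and 6 neuronal markers, 2 of 2 for Reissner's membrane, 4 of 4 haemoglobin genes, 4 of 4 B cell genes and 5 of 6 stria and lateral wall markers were lower, beside 17.5% of all genes, and none was higher. Of 9 hair cell markers 6 were higher and 0 lower. None was higher without the cells with hair cell UMIs, which were chosen by 2 of these markers and stayed in all other barcodes. Of 5 Deiters and pillar genes outside the rule *Lgr5*, *Lgr6* and *Tectb* were higher. Of 6 markers of Hensen and sulcus cells *Aqp4* was higher (1.36 ± 0.35, adjusted p = 0.024) and *Bmp4*, *Fst* and *Ucma* lower. Of 9 glial markers *Sox10*, *Erbb3* and *Fabp7* were higher and 2 lower, among them *Pmp22*. Against the Deiters and pillar side all 4 haemoglobin genes were higher (0.541% of all genes), with *Hbb-bs* at 101, 759.6 and 1989.7 CPM against 97.7, 155 and 92.8 CPM (2.49 ± 0.50, adjusted p = 0.035), and so was the fibrocyte gene *Otos* (1.23 ± 0.18, adjusted p = 0.0069). The haemoglobin signal in the selected cells was highest in P28 replicate 2, and its part in this comparison was not tested.

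No test was run between the ages, because P14 had 1 library and so no replicate. A gene was described as higher or lower at P14 where its 95% exact Poisson interval overlapped neither P28 interval and the higher age had at least 100 CPM. These intervals cover counting error only. Of 1958 genes 545 were higher (27.8%) and 350 lower (17.9%) at P14. With CPM computed without mitochondrial, ribosomal protein and haemoglobin genes, 448 were higher and 524 lower. Which direction held more genes thus depended on the scaling. The comparison sets 30 cells, mostly in *Epyc* clusters, beside 540 cells, mostly in the *Slc1a3*-richest and *Otof* clusters, so a change of level within a cell and a change in the kind of cell selected cannot be told apart. Genes are therefore set beside their values in all other barcodes or in the whole *Slc1a3*-richest cluster.

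The 10 genes furthest above P28 at P14 included the cartilage-type collagen genes *Col9a1* and *Col2a1*. *Col9a1* was at 628, 19.2 and 12.4 CPM in the selected cells, 572, 16.7 and 16.4 CPM in all other barcodes and 418, 17.4 and 7.31 CPM in the *Slc1a3*-richest cluster. *Col2a1* was at 491, 11.2 and 8.26 CPM, 580.4, 43.2 and 83.4 CPM and 191, 7.98 and 10.4 CPM in the same order. Both were thus higher at P14 in each of the 3 sets and were spread over 28 and 24 of the 30 P14 cells. The protease gene *Tmprss9* (387, 5.14 and 6.19 CPM, 20 cells), *Ecrg4* (279.9, 7.48 and 4.82 CPM, 20 cells) and the transcript *AY036118* (264, 2.34 and 8.95 CPM, 24 cells) were widely spread too, and the other barcodes of P14 also held more of them, with 317, 2.99 and 2.15, 164, 28.6 and 24.4 and 404, 11.2 and 10.7 CPM. *Xist* was given above. The remaining 4 rested on few cells: *Dqx1* (225, 0.467 and 1.38 CPM) came from 2 P14 cells, *Klk8* and *Hamp* from 5 each, and all 32 UMIs of *Mrc1*, a macrophage receptor, from the 1 cell of the macrophage cluster.

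The genes furthest below P28 at P14 stood highest in different sets of barcodes. *Calb2* (58.6, 977 and 914 CPM), which encodes calretinin, *Snap91* (9.76, 151 and 169 CPM), a synaptic clathrin adaptor, *Slc7a14* (13.0, 187 and 156 CPM) and *Gm34653* (9.76, 127 and 109 CPM) were highest in the cells with hair cell UMIs, of which P14 had 1. Without these cells *Calb2* was at 10.3, 80.6 and 38.6 CPM and *Slc7a14* at 3.42, 5.94 and 8.48 CPM. *Coch* (3.25, 178 and 426 CPM), *Car3* (3.25, 125 and 106 CPM), *Fxyd2* (6.51, 114 and 136 CPM) and *Apod* (19.5, 199 and 564 CPM) were each more abundant in all other barcodes. There *Coch* stood at 909, 1680.0 and 2067 CPM, *Apod* at 1219, 1801 and 2191 CPM and *Fxyd2* at 31.0, 348 and 442 CPM, lowest at P14 as in the selected cells, whereas *Car3* stood at 1261, 461 and 394 CPM and was highest at P14. *Ttll3*, a tubulin-modifying enzyme, stood at 16.3, 189.8 and 201 CPM in the selected cells but at 129, 403 and 396 CPM in the whole *Slc1a3*-richest cluster, where P14 was not as low but also lay below both P28 libraries.

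**Figure D5:**
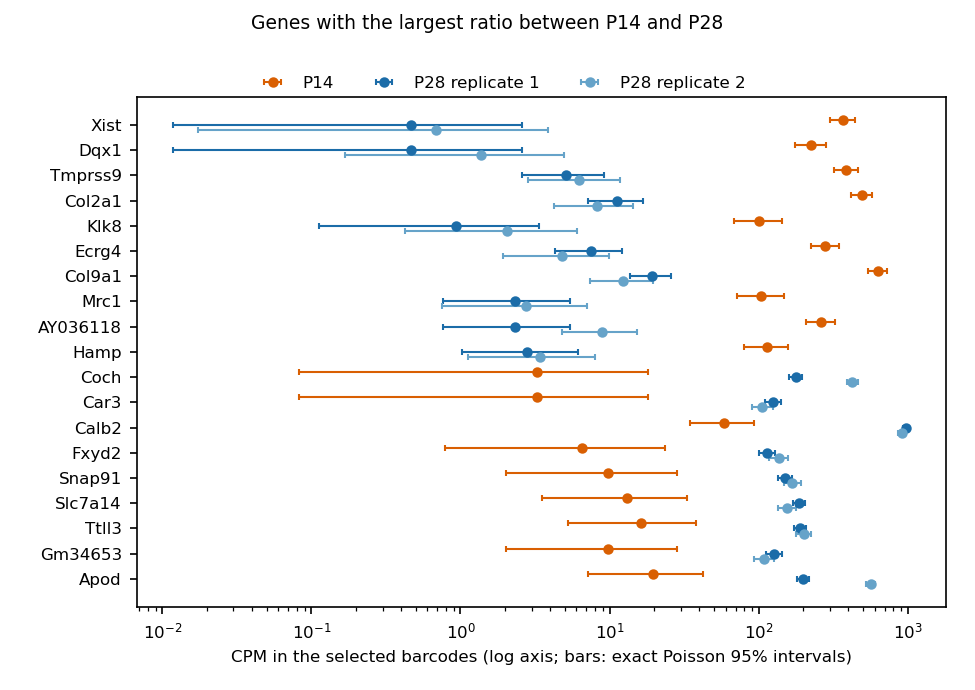
Level in the selected barcodes (horizontal log axis, CPM) of genes named between the ages, with 1 point per library and exact Poisson 95% intervals. *Col9a1* at 628 CPM at P14 lay far above 19.2 and 12.4 CPM at P28, and *Calb2* at 58.6 CPM at P14 below 977 and 914 CPM.

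In the whole *Slc1a3*-richest cluster 415 genes met the same description as higher and 157 as lower at P14. They included 234 of the 545 genes higher and 104 of the 350 lower in the selected cells. In all other barcodes 403 of the 545 and 158 of the 350 met it. The share of all genes that met it was not counted in either set. The sums of all other barcodes were larger and their intervals narrower, so no excess is read from these counts. In the *Slc1a3*-richest cluster (54 barcodes at P14) *Ano1* was at 668, 14.5 and 8.35 CPM and *Entpd2* at 174, 10.9 and 10.4 CPM, both highest at P14. *Dpysl2*, a cytoskeletal regulator, was at 873, 3127 and 3332 CPM there and *Fxyd6* at 66.8, 477 and 417 CPM. *Ano1* had the same order in the selected cells (247, 8.88 and 8.26 CPM). *Slc1a3* itself was at 1015, 1895 and 2021 CPM in the cluster, a smaller ratio between the ages than in the selected cells, where it was at 225, 1029.8 and 1176 CPM. *Otol1*, which encodes otolin, was at 828, 26.1 and 40.7 CPM there, and *Gjb2* at 1928, 1507 and 1402 CPM.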

How the data were processed

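The authors deposited 10x UMI counts per gene and barcode for 3 libraries, raw and not normalized, for barcodes with at least 500 UMIs. They were made with Cell Ranger 5.0.1 per the file headers and 6.0.1 per the submitters' processing notes, on mm10. All 3 libraries and 32285 genes were used, and cells were taken by the rule without a doublet filter. Counts were summed per library and cell set and fitted with edgeR 4.0.16 (R 4.3.3, quasi-likelihood test, TMM, filterByExpr, library as block, Benjamini-Hochberg), tested on simulated data, with DESeq2 1.42.0 as an alternative. Sums of the same library deviated together (correlations 0.300 to 0.601 over genes). The SE is the log2 fold change over the square root of F. With 3 pooled libraries and the library as block, p-values measure only how the difference within a library varied between libraries. That spread takes in any change of this difference between the ages. Each age was clustered with scanpy 1.11.5 (2000 variable genes, 30 components, 20 neighbours, Leiden resolution 1.5) without the genes of the rule. Intervals are exact (95%) and cover counting error only. Gene positions are from GENCODE (mm10). For each tested comparison the 10 genes per direction with the largest change among those that passed, with 1 direction in 3 libraries and at least 100 CPM were named (genes of mitochondria, ribosomal proteins and haemoglobins left out), and between ages the 10 with the largest ratio to the nearer P28 library. From lists, the most abundant members and those needed to account for the list were named. The cells, lists and tests were chosen with earlier results of these data known. Results for some genes are not reported here.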

Additional observations from a re-analysis of the deposited data

Results flagged for a closer look

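Of the named genes, the 20 most abundant genes and the genes of the lists, without those of the rule, 15 lay on opposite sides of all other barcodes at P14 and at P28, with exact 95% intervals apart in each library and at least 100 CPM in 1 of the sums. This difference was not tested. Values are CPM in the selected cells against all other barcodes, in the order P14, P28 replicate 1 and P28 replicate 2. *Clu*, a secreted chaperone, stood at 3720.0, 418 and 470.1 CPM against 2309, 879 and 864 CPM, *Timp2*, a protease inhibitor, at 583, 251 and 281 CPM against 396, 359 and 405 CPM, *Ecrg4* at 279.9, 7.48 and 4.82 CPM against 164, 28.6 and 24.4 CPM and *Atp1b1*, a sodium pump subunit, at 950.4, 914 and 975 CPM against 612, 1118 and 1154 CPM. *Itih5* stood at 2122, 761 and 704 CPM against 1753, 1069 and 1156 CPM and *Malat1* at 49259, 17193 and 20410.2 CPM against 46942, 21106 and 24976 CPM. These 6 were above the other barcodes at P14 and below them in both P28 libraries. *Pcp4* stood at 322, 1584 and 1475 CPM against 590.3, 206 and 129 CPM, *Calb2* at 58.6, 977 and 914 CPM against 193, 642 and 474 CPM, *Myo6*, a myosin of hair cells, at 124, 463 and 412 CPM against 224, 255 and 266 CPM, *Slc7a14* at 13.0, 187 and 156 CPM against 60.1, 62.3 and 60.8 CPM and *Snap91* at 9.76, 151 and 169 CPM against 33.5, 120.0 and 114 CPM. *Cep41* stood at 9.76, 37.4 and 49.6 CPM against 133, 19.1 and 14.5 CPM, *Tmem229a* at 16.3, 143 and 149 CPM against 48.8, 38.8 and 24.6 CPM, *Fbxo2* at 10252, 4704 and 4302 CPM against 12656, 2531 and 1783 CPM and *Igfbp5* at 2487, 3264 and 3513 CPM against 2854, 1443 and 1725 CPM. These 9 were below the other barcodes at P14 and above them at P28. For 5 of them the side at P28 depended on the cells with hair cell UMIs. Without these cells among the selected ones *Pcp4* was at 34.2, 52.2 and 98.9 CPM, *Calb2* at 10.3, 80.6 and 38.6 CPM, *Myo6* at 88.9, 101 and 145 CPM, *Slc7a14* at 3.42, 5.94 and 8.48 CPM and *Snap91* at 3.42, 24.4 and 32.04 CPM, below the other barcodes at both ages, although the other barcodes kept those with hair cell UMIs. At P14 89.9% of the *Pcp4* UMIs came from the 1 selected cell in the *Otof* cluster.

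Outside the limit on mitochondrial UMIs, 4, 82 and 136 further barcodes met the rest of the rule with 15% to 30% mitochondrial UMIs and entered no comparison above.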

How the results depend on the processing

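Counts of genes higher and lower, in that order, moved by over 1.5 times under several settings, and the cause was not tested. Against all other barcodes DESeq2 gave 1056 higher, at least 10 UMIs in every sum 661 and 572, thinning each barcode to 1000 UMIs 921 and 1006, and selected cells with no UMI of the 7 genes 138 and 423. Leaving out 1 library gave 275 to 3509 and 827 to 4120. Against the Deiters and pillar side DESeq2 gave 15 and 45, at least 10 UMIs 27 and 32, no filter on low counts 157 and 225, thinning 9 and 8, no UMI of the 7 genes 124 and 129, and at most 3000 genes and 15000 UMIs 105 higher. Leaving out 1 library gave 4 to 170 and 5 to 230. Against the Aqp4 epithelial set DESeq2 gave 469 and 588, thinning 298 and 376, and no UMI of the 7 genes 180 and 185. Leaving out 1 library gave 514 to 1609 and 420 to 1642.

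The sums of a library are paired because they come from the same library. With no replicate block the counts were 265 and 555 against all other barcodes, 185 and 81 against the Aqp4 epithelial set, and 0 and 0 by edgeR against the Deiters and pillar side, where 141 and 204 had an unadjusted p under 0.05 and DESeq2 with the block called 15 and 45.

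The settings of this paragraph, and their counterparts between the ages, were chosen after seeing the data. Without the cells with hair cell UMIs in both sets the counts were 142 and 194 against the Deiters and pillar side and 606 higher against the Aqp4 epithelial set. The *Slc1a3*-richest selected cells gave 78 and 291 against the Deiters and pillar side, and that side without *Slc1a3* 187 and 236. In the *Slc1a3*-richest cells 4 log2 fold changes reversed: *Lrrc10b* against all other barcodes (-0.11), *Itih5* against the Deiters and pillar side (-0.79), and *Otof* (-0.45) and *Pcp4* (-0.13) against the Aqp4 epithelial set.

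Between the ages at most 3000 genes and 15000 UMIs gave 270 higher and 100 lower at P14, no UMI of the 7 genes 166 and 54, no hair cell UMIs 219 lower and the whole *Slc1a3*-richest cluster 157 lower. The log2 ratio of *Dqx1* reversed to -0.70 without cells with 2 or more glial genes and to -0.79 in the whole cluster. That of *Mrc1* reversed to -1.37 with at most 3000 genes and 15000 UMIs and to -1.31 without the highest doublet scores. The 30 P14 cells limit depth, since a count of 0 there allows up to 9.76 CPM, against 1.40 and 2.06 CPM at P28.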
